A study of Mus musculus with 4 samples.

Results

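Immediate early response genes are transcribed within minutes of a signal, without the need for new protein synthesis. The 10 genes described here are Fos, Fosb, Jun, Junb, Egr1, Ier2, Ier5, Dusp1, Atf3 and Btg2, out of 32285 genes in the matrices. They were taken as a fixed list by name, and all 10 were present in the files. Growth factors, calcium entry and cell stress switch these genes on through MAP kinases and through transcription factors that already sit in the nucleus, such as SRF, the ternary complex factors and CREB. In dissociated tissue the same transcripts are known to respond to enzymes, warmth and handling. The cells here were dissociated in warm Accutase before sorting, and its part in the levels below was not tested.

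The data were single-cell RNA sequencing of tdTomato-positive cells sorted from E14.5 mouse cerebella. There were 2 control libraries (Atoh1-Cre/+; R26LSL-tdT/+) and 2 En1/2 CKO libraries, which in addition were En1lox/lox and En2lox/lox. Both groups thus carried the Atoh1-Cre driver and the tdTomato reporter, and the reporter marks descendants of cells that expressed Atoh1. Several animals were pooled for each library, and the labels give neither strain nor batch. The labels mention 2 replicate experiments without tying each library to one of them or to a litter, so each p-value measures only the spread between these libraries.

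The kept cells numbered 2911 and 3931 in control replicates 1 and 2, and 2007 and 3697 in CKO replicates 1 and 2. Their median depth was 2122 to 2734 unique molecular identifiers (UMIs) in the controls and 5352 to 5544 in the CKO libraries, and their median mitochondrial share was 5.53% to 5.66% against 2.66% to 3.97%. Any 2 libraries shared 1 to 6 kept cell barcodes. En2 was lower in the CKO libraries in both cell classes described next, at 17.5 to 48.5 counts (UMIs) per 1000000 UMIs (CPM) against 105 to 244 in the controls (log2 fold change -2.51 and -2.24, adjusted p 0.0115 and 0.0177). En1 did not pass the test (adjusted p 0.780 and 0.898). The labels do not say whether the counted 3′ end lies inside the deleted segment.

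Cells were sorted into classes by a simple count. Cells with more Pax6 than Meis2 UMIs numbered 1801, 961, 1208 and 2978 in control replicates 1 and 2 and CKO replicates 1 and 2, and cells with more Meis2 than Pax6 UMIs numbered 603, 2322, 573 and 372. Pax6 is a transcription factor of the granule cell lineage, and Meis2 is one of excitatory cerebellar nuclei neurons. Within libraries, 6 of 7 granule lineage markers were higher in the Pax6 > Meis2 cells and 7 of 7 markers of excitatory cerebellar nuclei neurons were higher in the Meis2 > Pax6 cells. The remaining granule lineage marker, Cntn2, which encodes an axonal adhesion protein, was called higher in Meis2 > Pax6 cells (log2 fold change 1.68, adjusted p 4.81e-06 by edgeR). The summed CPM of the 7 granule markers was 2626, 2392, 2461 and 2699 in Pax6 > Meis2 cells of the 4 libraries and 1979, 1804, 2689 and 2926 in Meis2 > Pax6 cells, so in both CKO libraries it was higher in the latter. Over all genes, 52.3% of the 12387 tested were called between the classes. Markers of GABAergic cells were called higher in Meis2 > Pax6 cells for 4 of the 4 that could be tested, so this class was not purely excitatory by its markers.

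In the list by role, Fos (ENSMUSG00000021250; chromosome 12, 85473890 to 85477273), Fosb (ENSMUSG00000003545; chromosome 7, 19302696 to 19310051), Jun (ENSMUSG00000052684; chromosome 4, 95049034 to 95052222) and Junb (ENSMUSG00000052837; chromosome 8, 84974484 to 84978718) encode leucine zipper subunits of the AP-1 transcription factor. Atf3 (ENSMUSG00000026628; chromosome 1, 191170296 to 191218039) encodes a related zipper protein induced by stress. Egr1 (ENSMUSG00000038418) encodes a zinc finger transcription factor. Ier2 (ENSMUSG00000053560; chromosome 8, 84661331 to 84662852) and Ier5 (ENSMUSG00000056708; chromosome 1, 155096361 to 155099636) encode nuclear proteins of one small family. Dusp1 (ENSMUSG00000024190; chromosome 17, 26505590 to 26562128) encodes a phosphatase that switches MAP kinases off. Btg2 (ENSMUSG00000020423; chromosome 1, 134075170 to 134079120) encodes an antiproliferative protein that is induced by p53 and marks neural progenitors in their last divisions. All coordinates are those of GRCm38.

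Promoter sequence was available for 8 of the 10 genes (not for Egr1 and Ier2) from RefSeq on GRCm38.p6, and the 250 bases before each start were searched on both strands. The motif TGACG, which is part of the full CREB and ATF site TGACGTCA, was found in 6 of the 8 windows and in 17.8% of 32851 windows of all genes. The full site TGACGTCA, each of which holds TGACG on both strands, was found in 2 windows (Dusp1 and Btg2) and in 1.55% of all windows. The GC box GGGCGG was found in 7 of the 8 windows and in 32.7% of all windows, and TATAAA was found only in the Fos window and in 12.4% of all windows. The CArG box bound by SRF and the AP-1 motif TGANTCA were in none of the 8 windows, against 1.47% and 6.75% of all windows. Bases beyond the 250, and all of Egr1 and Ier2, were not searched, so this does not show that a gene lacks such a site. The windows are shown for 3 genes that were lower in Meis2 > Pax6 cells in the results that follow (Fos, Jun and Btg2) and for the 2 whose level showed no such difference (Junb and Dusp1). They are chr12:85473640-85473889 on the plus strand for Fos and, on the minus strand, chr4:95052223-95052472 for Jun, chr8:84978749-84978998 for Junb, chr17:26508473-26508722 for Dusp1 and chr1:134079156-134079405 for Btg2. Each is written 5′ to 3′ and ends at the base before the start, with TGACG on either strand in capitals.
Fos: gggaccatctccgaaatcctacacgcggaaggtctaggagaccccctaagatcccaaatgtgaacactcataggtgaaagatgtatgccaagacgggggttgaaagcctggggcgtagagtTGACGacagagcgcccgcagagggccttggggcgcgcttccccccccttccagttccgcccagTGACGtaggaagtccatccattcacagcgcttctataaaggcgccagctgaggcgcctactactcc
Jun: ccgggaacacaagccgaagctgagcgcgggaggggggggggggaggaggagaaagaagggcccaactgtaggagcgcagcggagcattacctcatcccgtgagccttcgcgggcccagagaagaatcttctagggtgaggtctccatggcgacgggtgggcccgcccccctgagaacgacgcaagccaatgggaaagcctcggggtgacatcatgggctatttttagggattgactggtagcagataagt
Junb: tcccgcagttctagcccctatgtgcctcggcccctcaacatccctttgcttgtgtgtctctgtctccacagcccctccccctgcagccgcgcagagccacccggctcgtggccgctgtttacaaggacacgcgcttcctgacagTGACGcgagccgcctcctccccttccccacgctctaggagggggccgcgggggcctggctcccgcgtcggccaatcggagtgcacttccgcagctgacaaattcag
Dusp1: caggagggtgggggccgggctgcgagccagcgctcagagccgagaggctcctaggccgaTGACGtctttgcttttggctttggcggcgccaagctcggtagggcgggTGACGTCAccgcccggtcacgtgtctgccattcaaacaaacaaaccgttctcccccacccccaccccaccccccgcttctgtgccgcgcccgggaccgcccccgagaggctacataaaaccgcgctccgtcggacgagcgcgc
Btg2: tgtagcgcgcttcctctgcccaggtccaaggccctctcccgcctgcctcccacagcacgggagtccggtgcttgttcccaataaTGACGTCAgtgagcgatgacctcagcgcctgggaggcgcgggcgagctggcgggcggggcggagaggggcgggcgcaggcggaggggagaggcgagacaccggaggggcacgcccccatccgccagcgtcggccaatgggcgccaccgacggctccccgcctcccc
Fos held 2 matches to TGACG, 129 to 125 and 66 to 62 bases before its start, the second of them upstream of TATAAA at 33 to 28 bases. Dusp1 and Btg2 held TGACGTCA 143 to 136 and 166 to 159 bases before their starts. Junb held 1 match and Jun none. The presence of these letters thus did not divide the genes that were lower from those that were not, and a match is a description of the sequence only.

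Over all 10 genes, UMIs per 10000 UMIs came to 8.45, 5.65, 7.998 and 5.91 in the Pax6 > Meis2 cells of control replicate 1, control replicate 2, CKO replicate 1 and CKO replicate 2. In the Meis2 > Pax6 cells they came to 5.07, 4.49, 6.04 and 3.75. The load was therefore higher in Pax6 > Meis2 cells in each of the 4 libraries. The libraries numbered 1 were above those numbered 2 in both groups and both classes, while the control and CKO ranges overlapped. Cells with equal Pax6 and Meis2 counts, most of them with neither, carried 9.06, 6.23, 6.43 and 8.34. A few barcodes with non-neural markers, described further on, weighed on these values. They held 315 of the 1102 early response UMIs in control replicate 1 and 225 of 874 in control replicate 2. In CKO replicate 2 they held 351 of 704, and in CKO replicate 1 there were none.

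Each cell of at least 2000 UMIs was thinned to 2000 UMIs so that cells could be compared at one depth. The mean number of early response UMIs per Pax6 > Meis2 cell was then 1.64, 1.12, 1.58 and 1.15 over 1334, 576, 1043 and 2259 cells, after 467, 385, 165 and 719 shallower cells were left out. The mean per Meis2 > Pax6 cell was 0.901, 0.787, 0.991 and 0.626 over 423, 1322, 430 and 222 cells, with 180, 1000, 143 and 150 left out. The CKO minus control difference was -0.0134 UMIs per cell in the Pax6 > Meis2 class (controls 1.38 ± 0.364, CKO 1.37 ± 0.305; SD, n = 2 each; exact permutation test, two-sided p = 1) and -0.0353 in the Meis2 > Pax6 class (controls 0.844 ± 0.0806, CKO 0.808 ± 0.258; exact permutation test, p = 1). With 2 against 2 libraries the smallest p this test allows is 1 in 3, and the p-values were the same after adjustment over the 2 tests. Both differences were smaller than the spread between libraries, and the second was 0.117 per 10000 UMIs, of the opposite sign, without thinning.

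The early response UMIs were spread over many cells. At 2000 UMIs, 70.9% (95% Wilson interval 68.4% to 73.3%), 58.3% (54.3% to 62.3%), 72.3% (69.5% to 74.9%) and 63.2% (61.2% to 65.2%) of Pax6 > Meis2 cells had at least 1 such UMI. The shares in Meis2 > Pax6 cells were 49.9% (45.1% to 54.6%), 46.7% (44.1% to 49.4%), 55.3% (50.6% to 60.0%) and 41.9% (35.6% to 48.5%). Without thinning they were 65.0% to 88.7% and 48.9% to 66.5%. These intervals cover counting error only. As a rough measure of free RNA in the droplets, 22 kept barcodes with over 1% haemoglobin UMIs, which are red cell-like, held 0.722 early response UMIs per 10000, and 27.3% of them had a UMI at a median of 4071.5 UMIs. Whether such cells express these genes themselves was not tested. Their removal took the kept cells from 2911 to 2907 and from 3931 to 3916 in control replicates 1 and 2. In CKO replicate 1 it took them from 2007 to 2004, and CKO replicate 2 stayed at 3697, so the value does not cover that library. 

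**Figure D1:**
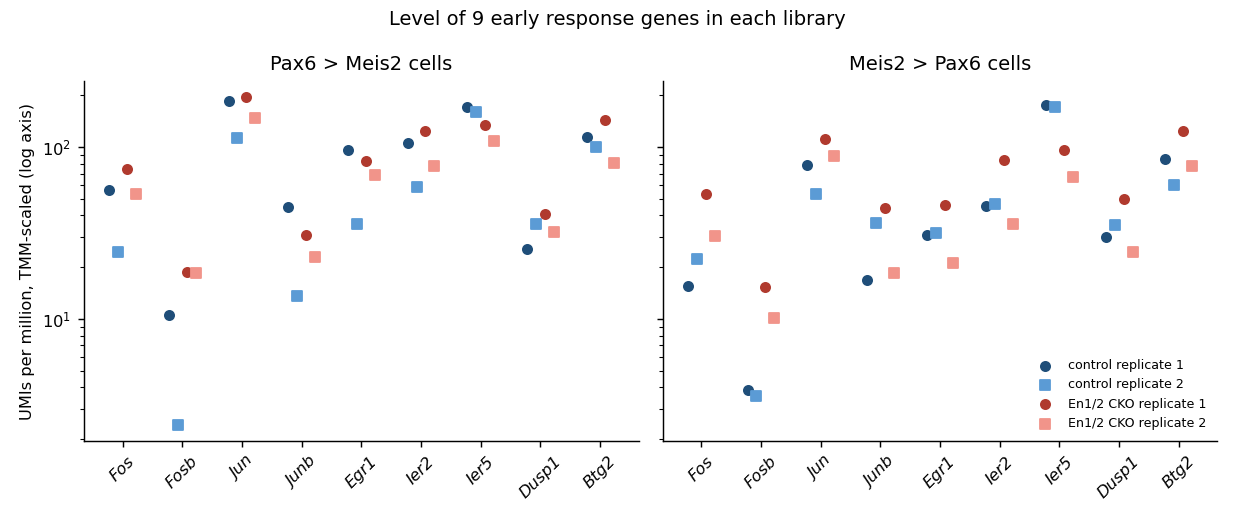
Each point is the level of 1 gene in 1 library, in CPM scaled by TMM within the class, on a log axis; the left panel holds Pax6 > Meis2 cells and the right panel Meis2 > Pax6 cells, and Atf3 is left out because several libraries had 0 UMIs of it. In Meis2 > Pax6 cells both CKO points lie above both control points for Fos, Fosb and Jun and below them for Ier5.

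Cells with more Meis2 than Pax6 carried fewer Jun, Egr1, Ier2, Fos, Fosb and Btg2 UMIs per UMI sequenced than Pax6 > Meis2 cells of the same libraries, whereas Junb, Dusp1 and Ier5 did not pass the test. This contrast is made within libraries, so control and CKO libraries both contribute. Of the 9 genes tested, 6 were called lower and none higher (edgeR quasi-likelihood test with the library as block, Benjamini-Hochberg adjusted p under 0.05), beside 27% of all tested genes called lower, 25.3% called higher and 52.3% called either way. The median log2 fold change was -0.60 over the 9 genes and -0.01 over all genes tested.

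Jun, the AP-1 subunit that can pair with itself or with Fos proteins, stood at 189.6, 116, 195 and 151 CPM in the Pax6 > Meis2 cells of control replicates 1 and 2 and CKO replicates 1 and 2. In the Meis2 > Pax6 cells of the same libraries it stood at 76.4, 52.3, 109 and 87.1. It was lower in 4 of 4 libraries, as 32.9% of all tested genes were (log2 fold change -1.02, SE 0.10, adjusted p 5.65e-06), and the lowest Pax6 > Meis2 value lay above the highest Meis2 > Pax6 value. Fos, which needs a partner such as Jun to bind DNA, fell from 58.0, 25.3, 75.1 and 54.9 to 15.005, 21.8, 52.1 and 29.6 (log2 fold change -0.80, SE 0.19, adjusted p 0.00313). The drop was in 4 of 4 libraries but was small in control replicate 2, where the ratio was 1.16, against 1.44 to 3.87 in the others. Without 4 macrophage-marked barcodes described further on, the Meis2 > Pax6 value of Fos there was 14.7 rather than 21.8, so the small ratio rests partly on them. Fosb stood at 10.9, 2.50, 18.9 and 19.0 against 3.75, 3.47, 14.9 and 9.86 (log2 fold change -0.60, SE 0.23, adjusted p 0.0443). It was lower in 3 of 4 libraries, control replicate 2 being the exception. There the Meis2 > Pax6 value of Fosb was 0.833 without the same 4 macrophage-marked barcodes, which is below the Pax6 > Meis2 value. The Fosb call was lost without control replicate 1 (adjusted p 0.162), without CKO replicate 2 (0.183), by DESeq2 (0.110), with doublets removed (0.0530), among intact cells (0.312) and at 2000 UMIs (0.374).

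Junb stood at 45.8, 14.1, 30.8 and 23.7 in Pax6 > Meis2 cells and at 16.4, 35.1, 43.4 and 18.1 in Meis2 > Pax6 cells. It was higher in 2 libraries and lower in the other two (log2 fold change 0.07, SE 0.29, adjusted p 0.864). Atf3 was close to absent, with 1 to 10 UMIs per library in Pax6 > Meis2 cells and 0 to 5 in Meis2 > Pax6 cells. The 0 of 1965933 UMIs in control replicate 1 and the 0 of 1779646 in CKO replicate 2 allow up to 1.53 and 1.69 CPM (3 counts, counting error only). Atf3 did not pass the filter on low counts in any comparison within a class.

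Egr1 stood at 98.8, 36.6, 83.5 and 70.6 CPM in Pax6 > Meis2 cells and at 30.01, 30.9, 45.2 and 20.8 in Meis2 > Pax6 cells. It was lower in 4 of 4 libraries (log2 fold change -1.08, SE 0.19, adjusted p 0.000437), again with the smallest ratio in control replicate 2 (1.18, against 1.85 to 3.39). Without the 4 macrophage-marked barcodes the Meis2 > Pax6 value of Egr1 in that library was 17.8 rather than 30.9, so this ratio also rests partly on them. Ier2 stood at 109, 60.7, 125 and 79.3 against 44.1, 45.5, 82.2 and 35.1 and was also lower in 4 of 4 libraries (log2 fold change -0.83, SE 0.13, adjusted p 0.000214). Its relative Ier5 stood at 175, 164, 135 and 112 against 169, 166, 94.4 and 65.7. The Ier5 values of the 2 classes were within 1.04-fold of each other in both controls, and the ratio was 1.43 and 1.70 in the CKO libraries (log2 fold change -0.31, SE 0.12, adjusted p 0.0501), and Ier5 was called without control replicate 1 (-0.40, adjusted p 0.0375) and without control replicate 2 (-0.41, adjusted p 0.00594). Dusp1 stood at 26.3, 36.6, 40.8 and 32.9 against 29.1, 34.4, 49.2 and 24.1 and differed by less than the spread between libraries (log2 fold change 0.01, SE 0.12, adjusted p 0.961). Btg2 stood at 117, 104, 144 and 82.9 against 83.0, 58.6, 122 and 75.6 and was lower in 4 of 4 libraries (log2 fold change -0.42, SE 0.11, adjusted p 0.00626).

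Depth differed between the classes, so the same contrast was made among shallow cells and among deep cells. Median UMIs were 2339 to 13722.5 in Pax6 > Meis2 cells and 2171.5 to 3110 in Meis2 > Pax6 cells, lower in the latter in each library. Among cells under 4000 UMIs, the same number of genes, 6 of 9, was called lower, beside 14.3% of all tested genes, with Jun at -1.47, Egr1 at -1.54, Fosb at -1.14, Fos at -1.08, Btg2 at -0.97 and Ier2 at -0.56 (log2 fold change; adjusted p 2.29e-12 to 0.0216 by edgeR). Among deep cells (4000 UMIs or more, no more than 5% of them mitochondrial), 3 of 9 were called lower, beside 20.4% of all tested genes, namely Ier2 (-0.64, adjusted p 0.00788), Jun (-0.53, adjusted p 0.00104) and Ier5 (-0.34, adjusted p 0.0225). There Fos stood at -0.40, Fosb at -0.33 and Egr1 at -0.63 without passing the test (adjusted p 0.132, 0.312 and 0.0816), and the sign of Btg2 turned to 0.23 (adjusted p 0.0681).

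**Figure D2:**
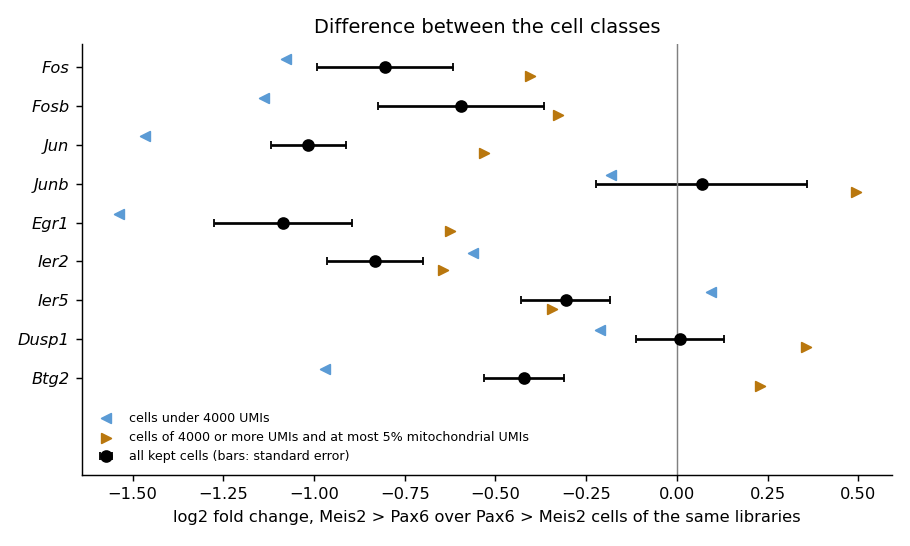
The horizontal axis is the log2 fold change of Meis2 > Pax6 over Pax6 > Meis2 cells within the same 4 libraries for each of 9 genes; black points with standard error bars are all kept cells, blue triangles cells under 4000 UMIs, and brown triangles cells of 4000 or more UMIs with at most 5% mitochondrial UMIs. Jun, Egr1, Ier2, Fos and Fosb lie below 0 in all 3 sets of cells, and Btg2 lies below 0 among all and shallow cells and above 0 among the deep cells.

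The cells with the highest early response load carried non-neural markers. Of the 12546 kept cells, 25 (0.199%) had at least 5 UMIs of a list of endothelial, of microglia and macrophage, or of meningeal and mural markers, a limit that was set after the data had been seen. These 25 held 55.0 early response UMIs per 10000, against 6.48 in the other 12521 cells. The high load was not shared by all 25. Only 68% of them had an early response UMI, against 69.1% of the other cells. Their loads ran from 0 to 189.7 per 10000, with a median of 29.0 against 4.66 in the other cells. The 14 of them with microglia and macrophage markers (C1qa, C1qb, C1qc, Csf1r, Cx3cr1, Aif1 and Fcer1g) held 71.8 per 10000. These 14 held 1108 of the 1266 early response UMIs of the 25. Among cells with at least 10 early response UMIs, the 10 with the highest load reached 58.6 to 189.7 per 10000, and each of the 10 carried at least 5 macrophage (9 cells) or meningeal (1 cell) marker UMIs.

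The excess in the marked barcodes differed by gene. Fos stood at 964 CPM in the 25 barcodes and at 50.2 in the other cells, Jun at 1342 against 142, Junb at 878 against 28.01, and Egr1 at 865 against 64.9. Atf3, which the other cells nearly lacked, stood at 109 against 0.369. Fosb stood at 226 against 13.7, Ier2 at 434 against 83.9, Btg2 at 417 against 98.1 and Dusp1 at 182 against 33.4. Ier5 alone among the 10 was lower in the marked barcodes, at 82.5 (19 UMIs) against 133. These barcodes come from all 4 libraries, too few per library for a test, and the values are a description.

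**Figure D3:**
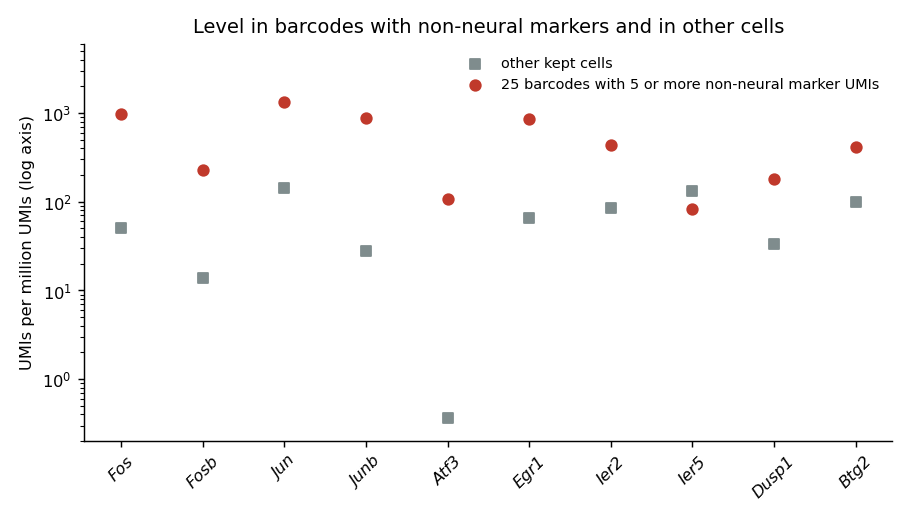
Each point is the level of 1 gene in CPM on a log axis, in red for the 25 barcodes with 5 or more UMIs of a non-neural marker list and in grey for the other 12521 kept cells. For 9 of the 10 genes the red point lies above the grey one, and for Ier5 it lies below.

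Of these barcodes 18 had equal Pax6 and Meis2 counts, 3 fell among Pax6 > Meis2 cells and 4 among Meis2 > Pax6 cells. All 4 of the last were in control replicate 2, and all had macrophage markers. In that library they were 4 of 2322 Meis2 > Pax6 cells and held 76.2% of the class's Fosb UMIs (16 of 21), 42.8% of Egr1 (80 of 187), 33.3% of Fos (44 of 132), 29.1% of Jun (92 of 316) and 26.9% of Junb (57 of 212). They held 8% of Ier2, 4.24% of Btg2, 0.598% of Ier5 and none of the 208 Dusp1 UMIs. The summed level of the 7 macrophage markers was 103 CPM in Meis2 > Pax6 cells of control replicate 2 and 1.02 to 1.81 in the other 3 libraries. The erythroid marker level also stood apart there, at 3684 CPM against 4.50 to 62.6, and with haemoglobin barcodes removed the CKO change of Fos, Fosb and Ier5 in this class was 1.13, 1.81 and -1.06, as with them. With all 25 barcodes removed, the class contrast called 7 of 9 genes lower, beside 27.2% of all tested genes, with Fos at -0.93, Fosb at -0.80, Egr1 at -1.29 and Jun at -1.13 (log2 fold change; adjusted p 0.000548, 0.0083, 1.18e-05 and 1.5e-05 by edgeR).

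By depth, the early response load neither rose nor fell steadily in Pax6 > Meis2 cells. In Meis2 > Pax6 cells it was higher in the deepest than in the shallowest cells of each library, though within counting error in control replicate 2. In Pax6 > Meis2 cells the load per 10000 UMIs was 7.76 to 8.88 across 5 depth ranges in control replicate 1, 4.51 to 6.53 in control replicate 2 (the 4.51 from 15 cells of 16000 UMIs or more), 6.72 to 8.95 in CKO replicate 1 and 4.82 to 6.04 in CKO replicate 2. The 95% Poisson intervals of the lowest and highest range did not overlap in any library, as with 6.04 to 7.46 and 8.62 to 9.29 in CKO replicate 1. In Meis2 > Pax6 cells it was 5.01, 3.86, 4.11 and 2.93 at 1000 to under 2000 UMIs and 7.81, 4.32, 7.14 and 4.76 at 16000 UMIs or more, the last from 5, 4, 85 and 18 cells. The 95% Poisson interval of the 4.32 in control replicate 2 was 2.91 to 6.17, which covers the 3.86. At 8000 to under 16000 UMIs the load in control replicate 2 was 20.5 (95% Poisson interval 18.7 to 22.5; 22 cells), and it was 6.95 without the macrophage-marked barcodes.

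**Figure D4:**
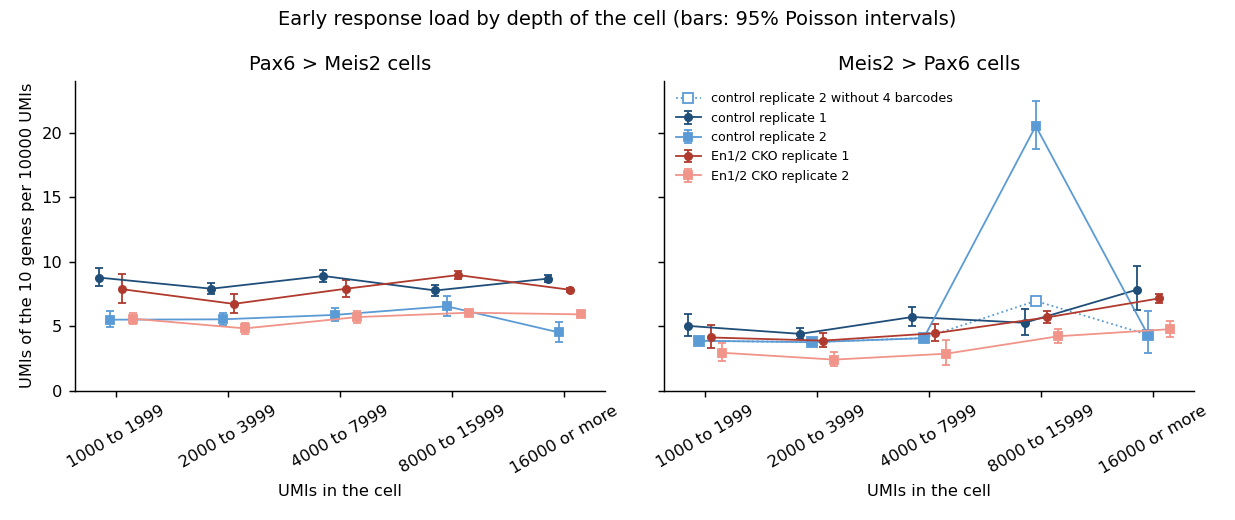
The vertical axis is the number of UMIs of the 10 genes per 10000 UMIs, and the horizontal axis the depth range of the cells; lines are the 4 libraries, bars are 95% Poisson intervals (counting error only), and the open dotted line is control replicate 2 without its 4 macrophage-marked barcodes. The lines of Pax6 > Meis2 cells lie between 4.51 and 8.95 without a steady rise or fall. The single high point at 20.5 among Meis2 > Pax6 cells drops to 6.95 without those barcodes.

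Tested gene by gene, 3 of 9 genes rose in Pax6 > Meis2 cells of 4000 UMIs or more relative to shallower cells of the same libraries, beside 27.9% of 11044 genes called higher and 57.8% called either way (edgeR, library as block). Ier2 rose by 0.82 (log2 fold change, SE 0.13, adjusted p 0.000160), from 78.7, 48.9, 67.1 and 42.2 to 122, 75.5, 136 and 85.1 CPM. Ier5 rose by 0.62 (SE 0.14, adjusted p 0.00199), from 137, 146, 101 and 56.7 to 193, 189.7, 145 and 120.3. Both were higher in 4 of 4 libraries, as 31.7% of all tested genes were. Fos rose by 0.53 (SE 0.18, adjusted p 0.0209) in 3 of 4 libraries, control replicate 2 being the exception at 29.0 in shallow and 22.0 in deep cells. Jun, Junb and Egr1 differed by 0.15, 0.13 and 0.03, less than or close to their standard errors of 0.13 to 0.15.

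Among Meis2 > Pax6 cells none of the 9 genes was called by depth, beside 0.0206% of 9724 genes (2 genes) called at all, although 8 of the 9 had an unadjusted p under 0.05 and DESeq2 called 3 of them. The values were 1.11 for Fos (SE 0.23), 0.91 for Jun (SE 0.21), 1.03 for Egr1 (SE 0.27) and 1.15 for Btg2 (SE 0.19). Each had an adjusted p of 0.0577 by edgeR. Each was higher in the deep cells of 4 of 4 libraries, as 20.7% of all tested genes were. In control replicate 2 all 4 macrophage-marked barcodes were among the deep cells (303 with them, 299 without). They held 80 of the 108 Egr1, 44 of the 71 Fos and 92 of the 169 Jun UMIs of these cells. The shallow cells there held 79 Egr1 UMIs in 4316489 UMIs, and the deep cells came to 1687362 UMIs without these barcodes. Without these barcodes Egr1 was thus not higher in the deep cells of that library. Btg2 stood at 58.6, 50.9, 59.3 and 31.2 CPM in the shallow cells and at 131, 83.1, 141 and 104 in the deep cells, so the 2 sets did not overlap. Over all genes 3161 had an unadjusted p under 0.05. The call changed with doublet removal, which let edgeR call 565 genes, Fos, Jun, Egr1 and Btg2 among them. Without control replicate 2, 2661 genes were called, among them Fos, Jun and Btg2.

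Cycling granule lineage cells carried more Ier5 and less Junb than the other cells of their class. Cycling was taken as 2 or more UMIs summed over Birc5, Cdk1, Cenpf, Mki67, Top2a and Ube2c, genes of mitosis. Within libraries 5 of 9 genes were called higher in cycling cells and 1 lower, beside 26.3% and 26.2% of 12346 genes called higher and lower and 52.6% called either way. Ier5 stood at 190.2, 171, 150.5 and 131 CPM in cycling cells and at 150.02, 154, 93.6 and 79.2 in the others (log2 fold change 0.51, SE 0.08, adjusted p 9.48e-06). Junb stood at 39.6, 13.4, 29.3 and 20.0 against 51.4, 14.1, 33.3 and 27.2 (log2 fold change -0.34, SE 0.09, adjusted p 0.00248). Each of the 2 moved the same way in 4 of 4 libraries, as 29.1% of all tested genes did upward and 29.3% downward. Fosb (0.41), Fos (0.35), Btg2 (0.18) and Egr1 (0.17) were also called higher, but cycling is easier to see in deep cells. With cells thinned to 4000 UMIs only Ier5 (0.43) and Junb (-0.64) were called.

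No early response gene was called by edgeR between the CKO and the control libraries in either class or over all kept cells, and DESeq2 called 1, Ier5 in Meis2 > Pax6 cells. Over all kept cells 0 of 10 genes were called by edgeR and 0 by DESeq2, 1 (Fosb) had an unadjusted p under 0.05, and 0% of 14710 genes were called at all (1648 had an unadjusted p under 0.05, and DESeq2 called 142). Fos and Fosb lay above the controls in both CKO libraries, as 25.4% of all genes did, and Ier5 and Atf3 lay below them, as 24.4% did. Without control replicate 1, the log2 fold change over all kept cells was 2.59 for Fosb, 1.32 for Fos, 1.20 for Egr1 and 1.10 for Jun. The control left in that fit, control replicate 2, had 59.1% Meis2 > Pax6 cells, against 28.6% and 10.1% in CKO replicates 1 and 2. These genes were called lower in Meis2 > Pax6 cells, so genotype and class mix cannot be told apart there. In Pax6 > Meis2 cells 0 of 9 were called by edgeR and 0 by DESeq2, 1 of them (Fosb) with an unadjusted p under 0.05, beside 0.0574% of 13931 genes. Among Meis2 > Pax6 cells 0 of 9 were called by edgeR and 1 (Ier5) by DESeq2, 4 of them with an unadjusted p under 0.05, beside 0.212% of 11804 genes. On simulated counts with the same common dispersion for every gene, the fit called 33% of genes changed 2-fold and 91% of genes changed 4-fold in Meis2 > Pax6 cells, and 20% and 87% in Pax6 > Meis2 cells. A 2-fold change was thus more often than not missed in the simulation. The changed genes were drawn at random and the spread of single genes was not simulated, so these rates are not those of the early response genes.

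In Meis2 > Pax6 cells the 3 AP-1 genes Fos, Fosb and Jun had both CKO values above both control values, and Ier5 had both below, where 22.1% and 22.5% of all genes did so in each direction. Fosb stood at 3.86 and 3.56 CPM in the controls and at 15.2 and 10.0 in the CKO libraries (log2 fold change 1.82, SE 0.41, adjusted p 0.111). These rest on 8, 21, 65 and 18 UMIs. Fos stood at 15.5 and 22.4 against 53.1 and 30.1 (log2 fold change 1.13, SE 0.31, adjusted p 0.159), and Jun at 78.7 and 53.6 against 111 and 88.8 (log2 fold change 0.62, SE 0.24, adjusted p 0.276). Without the macrophage-marked barcodes of control replicate 2 these differences were larger, at 2.81 for Fosb, 1.49 for Fos and 0.82 for Jun (adjusted p 0.0965, 0.0867 and 0.258). Without CKO replicate 2 both Fos (1.45, adjusted p 0.00886) and Fosb (2.06, adjusted p 0.0208) were called. Fos was also called without control replicate 2 (1.46, adjusted p 0.0470) and with a class margin of at least 2 UMIs (1.65, adjusted p 0.0476), and Fosb without control replicate 1 (1.88, adjusted p 0.0315). Of the fits that left out 1 library, Ier2 was called in that without CKO replicate 2 (0.88, adjusted p 0.0274). The summed level of the granule lineage markers was also higher after CKO in this class, with control values of 1979 and 1804 CPM against 2689 and 2926 CPM after CKO. Of the 7 markers, Atoh1, Barhl1, Zic1, Zic2 and Cntn2 had both CKO values above both control values, Neurod1 had both below, and Tlx3 overlapped. Their part in the differences of Fos, Fosb and Jun was not tested. Depth differed as well, with 17.6% and 13.0% of this class at 4000 UMIs or more in the controls against 40.7% and 25% in the CKO libraries. Fos, Fosb and Jun stood 1.11, 1.46 and 0.91 higher in such deep cells of the class (log2 fold change, none called). Within 5 depth ranges, both CKO libraries lay above both controls in 2 for Fos, 3 for Fosb and 1 for Jun. The part of depth in these differences was not tested.

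Ier5 differed in the other direction. It stood at 174 and 170.2 CPM in Meis2 > Pax6 cells of the controls and at 96.2 and 67.0 in the CKO libraries (172 ± 2.98 against 81.6 ± 20.7, SD, n = 2 each). The log2 fold change was -1.06 (SE 0.23, adjusted p 0.103 by edgeR and 0.0140 by DESeq2), and both controls lay well above both CKO libraries. It lay between -1.36 and -0.82 in the fits that left out 1 library, and it was called without CKO replicate 1 (adjusted p 0.0306) and without CKO replicate 2 (adjusted p 0.0485). The other members showed overlapping groups. Junb stood at 16.9 and 35.9 against 44.2 and 18.4, Egr1 at 30.9 and 31.7 against 46.1 and 21.2, and Ier2 at 45.4 and 46.6 against 83.8 and 35.7. Dusp1 stood at 29.9 and 35.3 against 50.1 and 24.6, and Btg2 at 85.5 and 60.0 against 124 and 77.0. In each of these 5 genes CKO replicate 1 was the highest library, and in 3 of them (Egr1, Ier2 and Dusp1) CKO replicate 2 was the lowest.

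Depth also differed between the groups in the Pax6 > Meis2 class, with median UMIs of 3238 and 2339 (controls) against 13722.5 and 9818.5 (CKO). Levels were therefore also compared in cells thinned to 2000 UMIs, by depth ranges, among intact cells and among cells under 4000 UMIs. In Pax6 > Meis2 cells the same 2 genes stood apart, Fosb higher and Ier5 lower in both CKO libraries, where 22.9% and 23.5% of all genes did so. Fosb stood at 10.6 and 2.42 CPM in the controls and at 18.8 and 18.5 in the CKO libraries (log2 fold change 1.32, SE 0.41, adjusted p 0.378). The low value of control replicate 2 rests on 8 UMIs, and without control replicate 1 the change was 2.99 (adjusted p 0.0389). Ier5 stood at 170.5 and 159 against 134 and 109 (log2 fold change -0.44, SE 0.22, adjusted p 0.514). Fos stood at 56.4 and 24.5 against 74.9 and 53.4 (log2 fold change 0.62, SE 0.34, adjusted p 0.535), with overlap, and among cells under 4000 UMIs its sign turned to -0.19, while Fosb stood at 1.43 there (adjusted p 0.559). With these cells thinned to 2000 UMIs, Fosb stood at 1.40 and Ier5 at -0.52 (log2 fold change; adjusted p 0.160 and 0.251 by edgeR). Jun, Junb, Egr1, Ier2, Dusp1 and Btg2 lay between -0.19 and 0.28 with standard errors of 0.24 to 0.40.

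**Figure D5:**
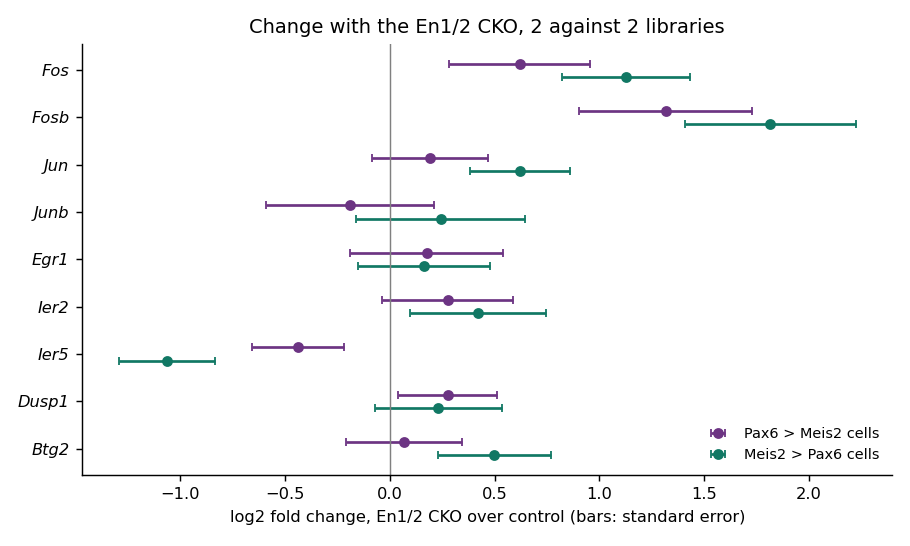
Points are log2 fold changes of the En1/2 CKO over the control libraries (2 against 2) for 9 genes, with standard error bars; violet marks Pax6 > Meis2 cells and green Meis2 > Pax6 cells. Fosb at 1.32 and 1.82 and Ier5 at -0.44 and -1.06 lie farthest from 0 on either side, and none of the 9 passed the adjusted threshold by edgeR in either class (DESeq2 called Ier5 in Meis2 > Pax6 cells).

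Whether the CKO change differed between the classes was tested as an interaction within libraries, with 0 of 9 genes called by edgeR and 0 by DESeq2, 2 of them (Ier5 and Btg2) with an unadjusted p under 0.05, beside 0.114% of 13146 genes called. The difference was -0.64 for Ier5 (SE 0.18, p 0.00291, adjusted p 0.372) and 0.43 for Btg2 (SE 0.19, p 0.0366, adjusted p 0.838). For Fos and Fosb it was 0.30 (SE 0.36) and 0.08 (SE 0.49), and neither was beyond the error of the test. Leaving out control replicate 1 let Junb (-1.15, adjusted p 0.00391), Egr1 (-0.96, adjusted p 0.00248) and Ier5 (-0.69, adjusted p 0.00570) be called by edgeR. Leaving out control replicate 2 let Fos (1.32, adjusted p 0.00158) and Junb (1.72, adjusted p 3.16e-06) be called, so the sign of Junb depended on which control was left out. Split by depth into 5 ranges, both CKO libraries lay above both controls for Fosb in 5 of 5 ranges in Pax6 > Meis2 cells and in 3 of 5 in Meis2 > Pax6 cells, and below them for Ier5 in 4 of 5 ranges in each class. The share of all genes with such an order was not counted. The Fosb order rests partly on controls without a UMI. Control replicate 2 had 0 Fosb UMIs in the Pax6 > Meis2 ranges that start at 1000, 8000 and 16000 UMIs. Control replicate 1 had 0 in the same ranges of Meis2 > Pax6 cells. For Fos both CKO libraries lay above both controls in 0 of 5 ranges in Pax6 > Meis2 cells and in 2 of 5 in Meis2 > Pax6 cells, and for Ier2 they lay above in 1 range and below in 2 in Meis2 > Pax6 cells. Jun, Junb, Egr1, Dusp1 and Btg2 showed either order in at most 1 range of a class, and the ranges are parts of the same libraries, not replicates.

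Related genes were counted from 5 lists. None of the 40 other early response genes tested over all kept cells was called between CKO and control by edgeR (5 with an unadjusted p under 0.05), nor any of the 36 and 29 tested in Pax6 > Meis2 and Meis2 > Pax6 cells. The same count of 0 held for 26 upstream MAPK, SRF and CREB genes and for heat shock, integrated stress response and p53 target genes in those 3 comparisons. Between the classes, 14 of 30 other early response genes were called lower in Meis2 > Pax6 cells and 5 higher, beside 27% and 25.3% of all tested genes. Zfp36l1 (-1.98, SE 0.11), whose product binds AU-rich messages for decay, and the MAP kinase phosphatase genes Dusp5 (-1.85, SE 0.14) and Dusp6 (-1.50, SE 0.20) were lower. The orphan nuclear receptor genes Nr4a3 (2.37, SE 0.42) and Nr4a2 (1.44, SE 0.23) and the small Maf gene Mafk (1.04, SE 0.33) were higher (log2 fold change; adjusted p 1.04e-07 to 0.0182 over these 6). The upstream genes were split, 4 higher and 4 lower of 26 tested, with the neuronal kinase gene Mapk10 (1.76) the most higher and the ternary complex factor gene Elk3 (-1.45) the most lower. Of the heat shock genes 4 of 12 were called lower and none higher, a share near the 27% of all tested genes called lower.

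Cell by cell, the members were only loosely coupled. In cells thinned to 2000 UMIs, the highest of the 36 pairwise Pearson correlations between members, by the lowest of the 4 libraries, was that of Fos with Egr1 (0.09 to 0.22 over 1585 to 2598 cells per library), followed by Jun with Egr1 (0.09 to 0.21) and Fos with Jun (0.06 to 0.24). Ier5 correlated with the sum of the other members at -0.06 to 0.05. Of 5274 genes compared in the same way with the summed members, Rps29, a ribosomal protein gene, had the highest such value (0.16 to 0.19). Cells of a library share depth and free RNA, counts are sparse, and correlations this weak are given as a description only.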

How the data were processed

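The authors deposited raw UMI count matrices made with Cell Ranger 5.0.0 on mm10, per the submitters' processing notes; how introns were counted is not given in the sources used here. Kept cells had at least 500 genes, at least 1000 UMIs and no more than 10% mitochondrial UMIs; total counts were 14998150 to 33709450 UMIs per library. Doublets were kept, and their removal was an alternative. Counts were summed per library and class and tested with edgeR 4.0.16 (quasi-likelihood, TMM, filterByExpr) in R 4.3.3, with Benjamini-Hochberg adjustment over all tested genes and a threshold of 0.05; contrasts within libraries had the library as block. DESeq2 1.42.0 was an alternative. The fits were tested on simulated data with 200 changed genes. Levels (CPM, UMIs per 1000000 UMIs) are after TMM scaling, except in the marked barcodes, where they are unscaled. Thinning used numpy 2.4.6 and exact tests scipy 1.17.1. The other alternatives were RLE factors, no filter, each library left out, intact cells, thinning, a class margin of 2 UMIs, haemoglobin barcodes removed and a replicate block. Removal of barcodes with non-neural markers, cells under 4000 UMIs and the crossed block were chosen after seeing the data. The members and the lists were chosen with earlier results of these data known. All 10 members are named; from each related list the text draws on the 3 called genes with the largest change in each direction, and genes like the members were ranked by their lowest correlation over the 4 libraries, of which only the first is reported here.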

Additional observations from a re-analysis of the deposited data

How the results depend on the processing

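Where single genes were compared with their alternatives, 761 comparisons kept both direction and side of the threshold, 53 passed it only under the alternative, 24 only in the reported fit, and 82 turned direction. Counts of called genes moved with the settings in the contrasts named next, and the cause was not tested. With no filter on low counts, edgeR called 768 genes over all kept cells, 348 in Pax6 > Meis2 cells, 559 in Meis2 > Pax6 cells, 84 in the interaction and 2022 by depth in Meis2 > Pax6 cells, with 1, 1, 3, 0 and 6 early response genes among them. DESeq2 called 142, 85, 179, 12 and 759, with 0, 0, 1, 0 and 3. In Pax6 > Meis2 cells the count was 4 with RLE factors, 4 without haemoglobin barcodes, 4 with the class margin and 1 among intact cells. Among Meis2 > Pax6 cells it was 14 without doublets, 42 among intact cells, 9 at 2000 UMIs, 72 with the class margin (1 early response gene) and 11 among cells under 4000 UMIs. The interaction gave 2 without haemoglobin barcodes, 70 among intact cells and 23 at 2000 UMIs. By depth in Meis2 > Pax6 cells, doublet removal gave 565 genes and 4 early response genes. The class contrast gave 4168 at 2000 UMIs and 3085 under 4000 UMIs, with 3 early response genes among intact cells, and cycling gave 3135 at 4000 UMIs, with 2 early response genes there and 2 by DESeq2. The equal-depth difference in Meis2 > Pax6 cells was 0.117 without thinning.

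The libraries share replicate numbers, but over all tested genes same-numbered libraries did not deviate together (r = -0.25, -0.16 and -0.21), so the numbers were not used as pairs, although the summed early response load was higher in the libraries numbered 1 of both groups. With the replicate number as a block, 0 genes were called over all kept cells, 0 in Pax6 > Meis2 cells, 58 in Meis2 > Pax6 cells and 63 in the interaction, none of them an early response gene, and Junb in Pax6 > Meis2 cells turned to 0.040. With the numbers crossed the block called 885, 207 and 763 genes, including 1, 1 and 3 early response genes.

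Without 1 library, the counts ran from 0 to 1398 over all kept cells, 2 to 123 in Pax6 > Meis2 cells, 44 to 751 in Meis2 > Pax6 cells, 28 to 422 in the interaction and 0 to 2661 by depth in Meis2 > Pax6 cells. The early response genes among them ran from 0 to 4, 0 to 1, 1 to 4, 0 to 3 and 0 to 3. The largest counts came without control replicate 1, CKO replicate 2, CKO replicate 2, control replicate 1 and control replicate 2. A group left with 1 library is assumed to vary like the others. The equal-depth difference ran from -0.271 to 0.244 in Pax6 > Meis2 cells and -0.218 to 0.147 in Meis2 > Pax6 cells. Over all kept cells Jun ran from -0.051 to 1.10, Junb from -0.54 to 0.030, Egr1 from -0.26 to 1.20 and Btg2 from -0.13 to 0.65. In Pax6 > Meis2 cells Jun ran from -0.10 to 0.65, Junb from -0.72 to 1.02, Egr1 from -0.33 to 1.15, Ier2 from -0.10 to 0.82 and Btg2 from -0.40 to 0.43. In Meis2 > Pax6 cells Junb ran from -0.59 to 0.95, Egr1 from -0.56 to 0.57, Ier2 from -0.36 to 0.88 and Dusp1 from -0.42 to 0.62. In the interaction Fos ran from -0.49 to 1.32, Fosb from -1.07 to 1.00, Junb from -1.15 to 1.72, Egr1 from -0.96 to 0.58, Ier2 from -0.43 to 0.53 and Dusp1 from -0.52 to 0.25. Between the classes Junb ran from -0.25 to 0.49 and Dusp1 from -0.10 to 0.12. By depth in Pax6 > Meis2 cells Egr1 ran from -0.030 to 0.16. By cycling Ier2 ran from -0.075 to 0.047 and Dusp1 from -0.15 to 0.034.

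Other turns of direction (log2 fold change) were in genes not called in the reported fit, except Btg2 between the classes. Among intact cells over all classes Egr1 was -0.059 and Btg2 -0.11, and in Pax6 > Meis2 cells Btg2 was -0.10. In intact Meis2 > Pax6 cells Junb was -0.66, Egr1 -0.58, Dusp1 -0.16 and Btg2 -0.25, and Fosb could not be tested. Among Pax6 > Meis2 cells under 4000 UMIs Fos was -0.19, Jun -0.20, Ier2 -0.31, Dusp1 -0.14 and Btg2 -0.064. Among Meis2 > Pax6 cells under 4000 UMIs Egr1 was -0.12, Ier2 -0.61, Dusp1 -0.35 and Btg2 -0.23, and at 2000 UMIs Egr1 was -0.0094. In the interaction, intact cells gave Fos -0.043, Fosb -0.37, Jun -0.056, Junb -0.26, Ier2 0.33 and Btg2 -0.19, DESeq2 gave Fosb -0.059, and thinning gave Junb -0.093 and Dusp1 0.059. There the class margin gave Egr1 0.40 and Ier2 0.24, removal of marked barcodes Egr1 0.17 and Ier2 0.044, and doublet removal Ier2 0.0031. Between the classes, Junb and Dusp1 were -0.021 and -0.077 with no filter and -0.019 and -0.026 by DESeq2. Junb was -0.053 with the class margin and -0.037 without marked barcodes. Under 4000 UMIs Junb was -0.18, Dusp1 -0.21 and Ier5 0.095, and among intact cells Btg2 was 0.23. By cycling, Ier2 was 0.0091 with no filter and 0.014 by DESeq2. With 2 libraries a group, 2-fold changes were often missed on simulated counts, and counts under 10 UMIs per library (Fosb, Atf3) set the precision of those genes.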
